A study of Mus musculus with 2 samples.

Results

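The Rhox genes are homeobox genes that lie side by side on the mouse X chromosome, and the 6 described here are Rhox1, Rhox5, Rhox6, Rhox9, Rhox10 and Rhox13. They were found by their symbols among the 24354 genes in the deposited table of FPKM, a fragment count divided by transcript length and library size, which lists 31 Rhox genes in all. The 6 genes were chosen from the same FPKM values that are described below, with their difference between the libraries already known, so their values are a description and no test was made on them.

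RNA from differentiating mouse embryonic stem cells (ESCs) was sequenced in 2 libraries, 1 of control cells (Diff–CONT) and 1 of cells with inducible knockout of Ino80 (Diff–iKO), the ATPase of a chromatin remodelling complex. Both ESC lines were derived from blastocysts and were homozygous for a floxed Ino80 allele, although the labels give the control genotype as WT, and CreER, expressed from the ROSA26 locus, was present only in the knockout line. Both were given 2 days of serum, were grown as embryoid bodies that were moved to gelatin on day 4, and were then fed for 7 days with BMP4 differentiation medium that held 0.5 µM 4-OHTM, the drug that activates CreER. Each condition is 1 culture of 1 line with 1 library, so a difference between lines, cultures or libraries cannot be told apart from an effect of the knockout, and no p-value is given.

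Rhox stands for reproductive homeobox on the X chromosome. The proteins bind DNA, and the genes are known for expression in placenta, testis and ovary, and in germ cells. In the embryo proper the cluster is known to be held silent by DNA methylation of its promoters, while extraembryonic tissue keeps several of its genes active. Rhox5, first named Pem, is also expressed in cultured ESCs and in the Sertoli cells of the testis, Rhox6 and Rhox9 were first described as placenta-specific homeobox genes, Rhox10 is known from spermatogonia and Rhox13 from germ cells.

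The FPKM values rise in steps that give the number of fragments behind them. The size of the steps gives a library size of about 29990000 fragments for Diff–CONT and 22380000 for Diff–iKO. These are the sizes by which the FPKM values were divided and need not be the fragments sequenced. The intervals of single genes below are exact Clopper-Pearson 95% intervals on those fragments and cover counting error only, not the spread between cultures. Ino80 itself, measured over the whole gene, was at 8.90 FPKM in Diff–CONT and 10.3 in Diff–iKO. The log2 difference of 0.21 (interval 0.11 to 0.31) went against the label, and the second library is therefore called the library labelled Diff–iKO throughout. Whole-gene FPKM does not resolve the floxed exons. Where a pair of levels is given without naming the libraries, the first is Diff–CONT.

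Rhox6 and Rhox9 are the most alike of the 6 genes, and their sequences are shown because their RNA levels are told apart only by the bases in which they differ. Their coding sequences are 684 bases each and are identical at 620 positions (90.6%), while every other pair among the 6 genes was identical at 57.0% to 67.1% of aligned bases. Rhox6 lies at chrX:37826910-37829857 on the plus strand and Rhox9 at chrX:37899097-37901770 on the minus strand, 69.2 kb apart (GRCm38). The longest run of coding bases that they share is 161 bases in exon 2 of 4, at chrX:37827450-37827610 for Rhox6 and chrX:37901167-37901327 for Rhox9, and it is shown once.
Rhox6 and Rhox9, shared run: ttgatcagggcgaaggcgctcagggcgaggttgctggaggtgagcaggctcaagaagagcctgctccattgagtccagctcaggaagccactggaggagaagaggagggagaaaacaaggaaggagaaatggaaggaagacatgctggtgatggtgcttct

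Their most different stretch of 120 coding bases follows in the same exon, at chrX:37827626-37827745 for Rhox6 and chrX:37901032-37901151 for Rhox9. The 24 bases that differ are in capitals. Both are read 5′ to 3′ on the coding strand from GENCODE vM21 transcripts.
Rhox6: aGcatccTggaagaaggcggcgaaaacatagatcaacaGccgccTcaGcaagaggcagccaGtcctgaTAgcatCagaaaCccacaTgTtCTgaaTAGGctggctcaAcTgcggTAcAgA
Rhox9: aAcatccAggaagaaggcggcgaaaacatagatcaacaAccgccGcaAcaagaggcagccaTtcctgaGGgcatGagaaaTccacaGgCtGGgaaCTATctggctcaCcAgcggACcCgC

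Of all stretches of 75 bases in the Rhox6 transcript 88.4% occurred in no other gene, and of those in the Rhox9 transcript 86.5%; the remaining 109 stretches of each were shared with the other. In the transcripts of Rhox1, Rhox5, Rhox10 and Rhox13 100% were unique. Fragments from the shared run cannot be assigned to either gene by their sequence, so the 2 genes are also given summed below.

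Of the 6 Rhox genes, 3 reached an FPKM of 2, and all 3 did so in both libraries. These 3, Rhox5, Rhox6 and Rhox9, were higher in the library labelled Diff–iKO by at least the cut-off of a fold change (FC) of 2, and 0 were lower. Among all 12376 genes that reached an FPKM of 2 in at least 1 library, 6.73% were higher by this cut-off and 8.39% lower, 15.1% in either direction. Since the genes were chosen on this contrast, nothing is read from the count of 3. All 6 genes had a higher FPKM in the library labelled Diff–iKO. So had 264 of the 437 X-linked genes that reached an FPKM of 2. Nothing is read from the count of 6 either, which for Rhox10 and Rhox13 rests on 3 fragments or fewer in each library. The median log2 ratio of the 6 genes, computed with a pseudocount of 0.1, was 1.75, beside -0.0045 over the 12376 genes. It is the midpoint of Rhox1 and Rhox10, which rest on few fragments and did not reach an FPKM of 2, and it was 0.86 with a pseudocount of 1 and 2.14 with 0.01. Over Rhox5, Rhox6 and Rhox9 alone it was 2.11.

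**Figure D1:**
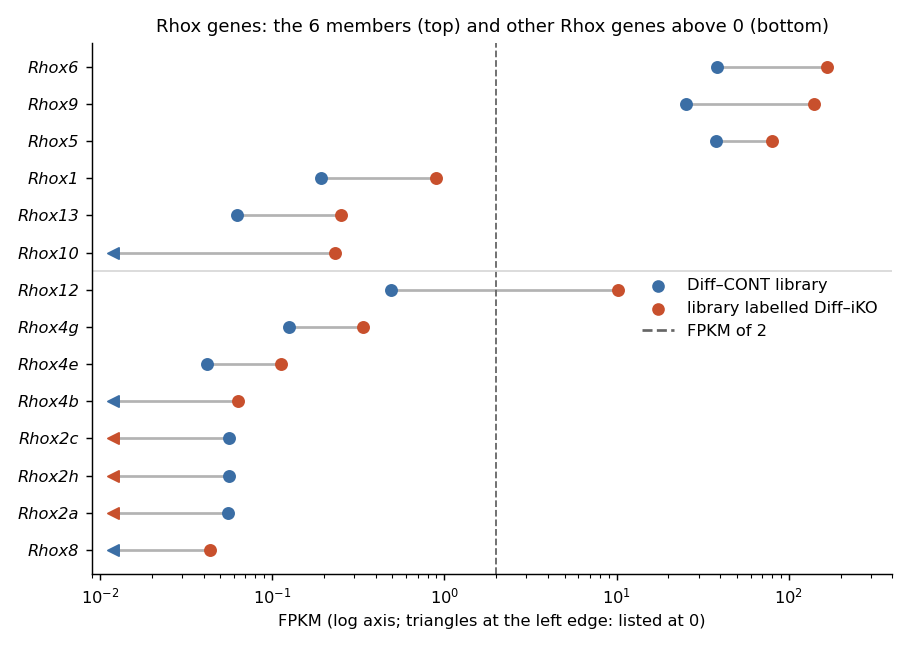
FPKM on a log axis of the 6 Rhox genes (above the line) and of the 8 other Rhox genes above 0 in either library (below it), with a blue point for Diff–CONT and an orange point for the library labelled Diff–iKO. Triangles at the left edge are genes listed at 0, and the dashed line is an FPKM of 2. Rhox6, Rhox9 and Rhox5 sit above an FPKM of 25 in both libraries, and Rhox12 crosses the line only in the library labelled Diff–iKO.

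Rhox6 was at 38.4 FPKM in Diff–CONT, against 166 FPKM in the library labelled Diff–iKO, from about 944 and 3062 fragments. The log2 ratio was 2.12 (interval 2.01 to 2.22), a 4.34-fold difference. Its level ranked 2077 of 24354 genes in Diff–CONT and 410 in the other library. Rhox6 was the highest of the Rhox genes in both libraries, although in Diff–CONT it lay only 1.02-fold above Rhox5.

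Rhox9 was at 25.3 FPKM in Diff–CONT, against 141 FPKM in the library labelled Diff–iKO, from about 525 and 2186 fragments. The log2 ratio was 2.48 (interval 2.34 to 2.62), a 5.57-fold difference and the largest of the 3. Among the 11161 genes with an FPKM of at least 2 in both libraries, its ratio ranked 36 from the top, that of Rhox6 75 and that of Rhox5 414. Summed, Rhox6 and Rhox9 were at 63.7 and 307 FPKM, a log2 ratio of 2.27 (interval 2.19 to 2.35), which lies between their own values; the sum was added after the values were seen.

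Rhox5 was at 37.8 FPKM in Diff–CONT, against 79.5 FPKM in the library labelled Diff–iKO, from about 502 and 792 fragments. The log2 ratio was 1.07 (interval 0.91 to 1.24), a 2.10-fold difference, so the interval spans the cut-off of 1. With the FPKM sums of the 2 libraries made equal the log2 ratio was 0.98, and Rhox5 no longer passed. Rhox5 lies at chrX:37804842-37808876 on the plus strand (GRCm38). Its fragments were counted over the shortest transcript, of 633 bases, which is no longer than its coding sequence. The counts are approximate, and over a longer transcript they would be higher and the interval narrower.

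The order of the 3 genes was not the same in both libraries. Rhox6 and Rhox5 stood above Rhox9 in Diff–CONT, and Rhox6 and Rhox9 above Rhox5 in the library labelled Diff–iKO. The ratio of Rhox9 to Rhox5 was 0.669 in Diff–CONT and 1.77 in the other library, a difference of 1.40 on the log2 scale (approximate 95% counting interval 1.19 to 1.62). For Rhox6 over Rhox5 the difference was 1.04 (0.85 to 1.24), and for Rhox9 over Rhox6 it was 0.36 (0.19 to 0.53). These intervals are a normal approximation from the 4 fragment counts of each pair and hold for the 2 libraries only.

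The 6 genes summed to 101.7 FPKM in Diff–CONT, against 388 FPKM in the library labelled Diff–iKO, a 3.82-fold difference. Rhox5 made up 37.2% of the sum in Diff–CONT and 20.5% in the other library, Rhox6 37.7% and 42.9%, and Rhox9 24.9% and 36.3%. The remaining 3 genes added little to either sum.

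**Figure D2:**
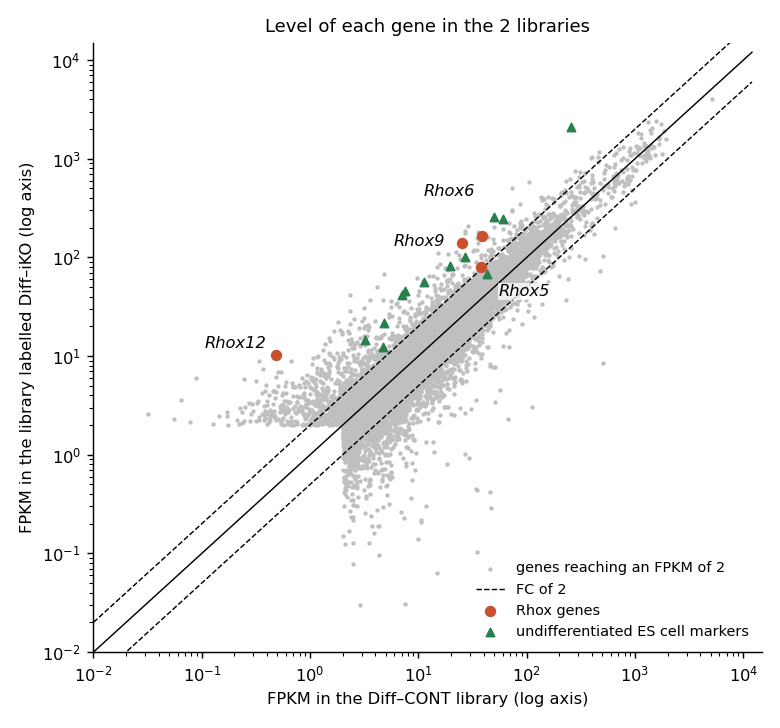
FPKM of each gene that reached an FPKM of 2 in Diff–CONT (x axis) against that in the library labelled Diff–iKO (y axis), both on log axes; 24 genes at or under 0.01 FPKM in a library are not drawn. The solid line is equality and the dashed lines an FC of 2. Rhox6 and Rhox9 (orange) lie above the upper dashed line, as do 11 of the 12 undifferentiated ES cell markers (green triangles), Rhox12 lies apart from them at lower levels, and Rhox5 lies just above that line at 2.10-fold.

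The 3 other genes, which include those known from germ cells, were near the limit of detection. Rhox1 was at 0.192 FPKM in Diff–CONT, against 0.894 in the library labelled Diff–iKO, about 4 and 14 fragments, a log2 ratio of 2.22 with an interval of 0.55 to 4.28. Rhox10 was listed at 0 in Diff–CONT, while the library labelled Diff–iKO had 0.232 FPKM, about 3 fragments. Rhox13 was at 0.0624 and 0.250 FPKM, about 1 and 3 fragments. Rhox1 lies at chrX:37213804-37222258 on the minus strand, Rhox10 at chrX:38066475-38071691 and Rhox13 at chrX:38121219-38129967, both on the plus strand. For Rhox10 and Rhox13 both libraries were at or under the limit of 3 fragments by these counts, so no fold is given and a difference was not detectable at this depth. The counts of Rhox13 rest on a transcript length scaled to 0.78 of the annotated one and would be somewhat higher without that scaling.

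Of the 25 other Rhox genes listed, 17 were at 0 in both libraries and 7 were above 0 but under an FPKM of 2, the highest at 0.337 FPKM (Rhox4g). Many of these belong to the Rhox2, Rhox3 and Rhox4 groups of near-identical copies, between which fragments can be split, and their values are uncertain. The 1 that reached an FPKM of 2 was Rhox12, at 0.489 FPKM in Diff–CONT, against 10.2 FPKM in the library labelled Diff–iKO, from about 11 and 166 fragments. Its log2 ratio of 4.37 (interval 3.50 to 5.40), a 20.7-fold difference, was larger than that of Rhox5, Rhox6 or Rhox9, and it passed the filter only through the library in which it was high.

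**Figure D3:**
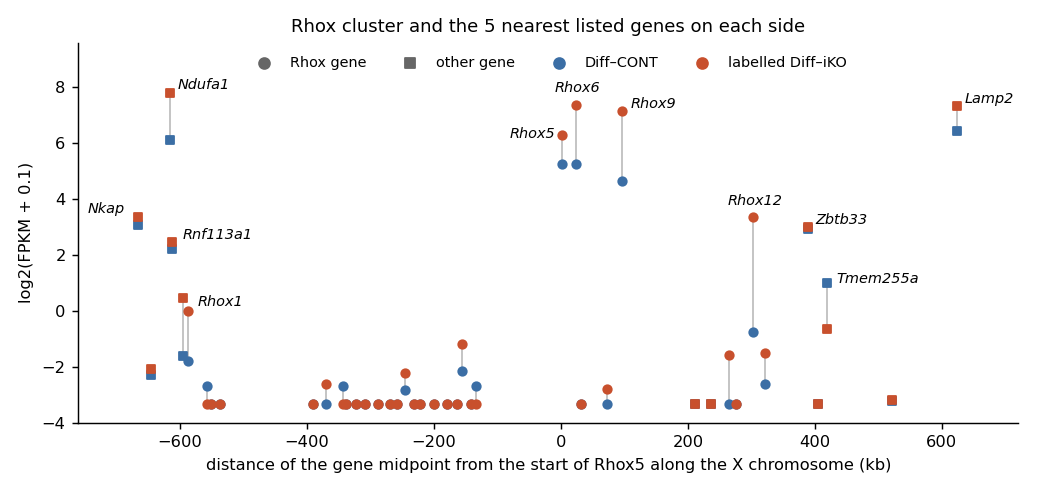
Level as log2(FPKM + 0.1) of the 31 Rhox genes (circles), the 2 other listed genes between them and the 5 nearest listed genes on each side (squares), by the distance of the gene midpoint from the start of Rhox5 in kb. Blue is Diff–CONT and orange the library labelled Diff–iKO, joined by a line. Rhox5, Rhox6 and Rhox9 stand together, most Rhox genes lie at the floor of the plot, and Ndufa1 and Lamp2 outside the cluster are at levels similar to that of Rhox6 in the library labelled Diff–iKO.

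From Rhox1 to Rhox13 the cluster spans 916 kb, chrX:37213804-38129967 (GRCm38), and holds 33 listed genes, of which the 2 that are not Rhox genes, Btg1-ps1 and Btg1-ps2, were at 0. Rhox5, Rhox6 and Rhox9 were the 3 highest genes of the cluster in both libraries. Rhox7a, which lies between Rhox6 and Rhox9, was listed at 0 in both libraries, and Rhox8, also between them, had about 1 fragment in the library labelled Diff–iKO.

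Among the 10 nearest genes outside the cluster, 5 reached an FPKM of 2, 1 of them was higher by the cut-off and 0 were lower. The higher one was Ndufa1, a subunit of respiratory complex I, at 69.1 and 223 FPKM (log2 ratio 1.69, interval 1.54 to 1.85). Lamp2, a lysosomal membrane protein, was at 87.4 and 161 FPKM, Nkap at 8.41 and 10.3, Rnf113a1 at 4.59 and 5.41, and Zbtb33 at 7.62 and 7.89, none of them past the cut-off. Gm9, next to Rhox1, was at 0.226 and 1.27 FPKM and Tmem255a at 1.91 and 0.536, both under an FPKM of 2. Of the 437 X-linked genes that reached an FPKM of 2, 14.2% were higher and 7.55% lower, with a median log2 ratio of 0.19.

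Markers of cell state also differed between the libraries, some lists higher and others lower, and their part in the Rhox values was not tested. All 12 markers of undifferentiated ESCs reached an FPKM of 2, and 11 were higher in the library labelled Diff–iKO and 0 lower, with a median log2 ratio of 2.16. They summed to 496 FPKM in Diff–CONT and 3064 in the other library, of which Dppa5a alone made up 258 and 2115 FPKM. Pou5f1, a core pluripotency factor, was at 60.8 and 247 FPKM (log2 ratio 2.02) and Nanog at 19.5 and 81.2 (2.06), beside 1.07 for Rhox5, 2.12 for Rhox6, 2.48 for Rhox9 and 4.37 for Rhox12. Sox2 was at 42.7 and 68.2 FPKM (0.68) and did not pass. In bulk RNA, more cells of a type and more RNA per cell cannot be told apart, so these values do not say in which cells Rhox RNA was present.

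Trophoblast, the tissue best known for Rhox6 and Rhox9 expression, had markers called in both directions. Of 15 markers 11 reached an FPKM of 2, 7 were higher and 3 lower, beside 6.73% and 8.39% of all genes, and the list summed to 154 and 218 FPKM. The placental lactogen gene Prl3b1 was at 1.82 and 22.4 FPKM, Plac1 at 11.6 and 26.5 and Krt7 at 39.2 and 86.4. The transcription factors Cdx2, Eomes and Hand1 were lower, at 4.00 and 0.705, 5.25 and 1.48, and 70.8 and 31.3 FPKM. Ascl2, Prl3b1, Prl3d1 and Tpbpa passed the filter only through the library labelled Diff–iKO and Cdx2 and Eomes only through Diff–CONT, so the direction of these was fixed by the filter, and with equal FPKM sums Ascl2 no longer passed (1.89-fold). The part of trophoblast cells in the Rhox values was not tested.

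Markers of extraembryonic endoderm went the other way. Of 14 markers 13 reached an FPKM of 2, 0 were higher and 13 lower, with a median log2 ratio of -3.32 and summed levels of 421 and 28.5 FPKM. Afp, the fetal serum protein, was at 45.9 and 0.422 FPKM and Gata4 at 20.1 and 2.56. None of these markers was at 0 in both libraries, several passed the filter only through Diff–CONT, and their part was not tested either.

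Among 9 markers of primordial germ cells 6 reached an FPKM of 2, 3 were higher and 0 lower, with summed levels of 44.6 and 109 FPKM. Dppa3 was at 10.2 and 46.1 FPKM, Prdm14 at 0.872 and 3.85 and Tfap2c, which the trophoblast list also holds, at 6.68 and 24.1. Prdm14 passed the filter only through the library labelled Diff–iKO. Dppa3 and Prdm14 are also expressed by ESCs. Of 8 markers of gonadal somatic cells, the site of Rhox5 in the testis, 2 reached an FPKM of 2, 0 were higher and 1 was lower (Sox9, 6.08 and 2.91 FPKM), and the list summed to 12.7 and 8.49 FPKM.

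**Figure D4:**
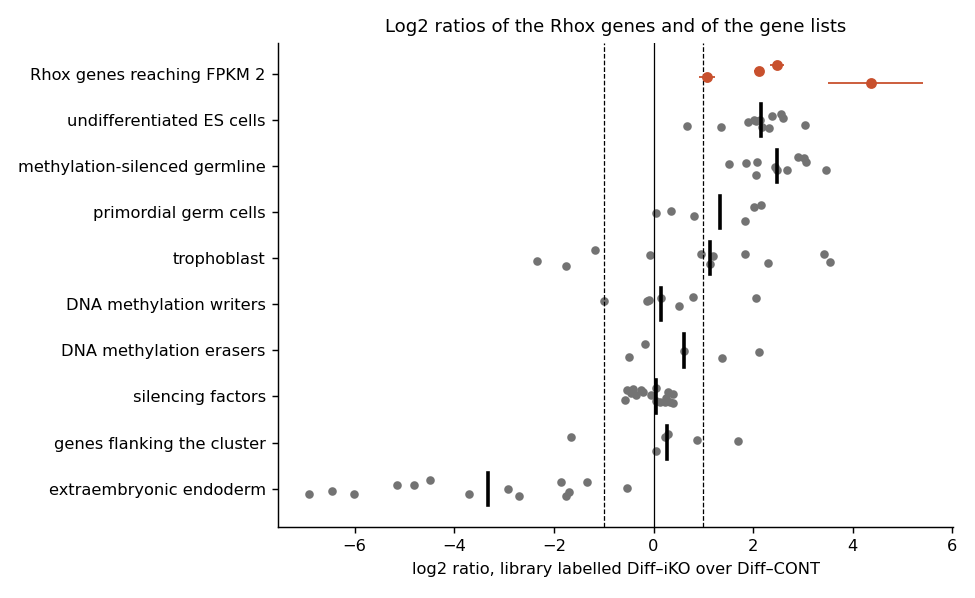
Log2 ratio (library labelled Diff–iKO over Diff–CONT) for the 4 Rhox genes that reached an FPKM of 2 (orange, no pseudocount, bars are 95% counting intervals) and for genes of each list with a mean FPKM of at least 1 (grey, pseudocount of 0.1). Black ticks are list medians and dashed lines an FC of 2. The ticks of the undifferentiated ES cell and methylation-silenced germline lists are at 2.16 and 2.49, the latter over genes that mostly passed the filter through the library labelled Diff–iKO, and those of the DNA methylation writers and silencing factors are at 0.14 and 0.05.

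Germline genes that are known, like the Rhox genes, to be silenced by promoter methylation in somatic cells gave 9 calls, all of them higher. Of 22 such genes 9 reached an FPKM of 2, 9 were higher and 0 lower, with a median log2 ratio of 2.49 over 11 genes and summed levels of 11.4 and 67.1 FPKM. Tex19.1 was at 3.15 and 24.3 FPKM, the X-linked Taf7l at 0.533 and 6.86 and the helicase gene Ddx4 at 1.48 and 4.42. All but Tex19.1 passed the filter only through the library in which they were high, so they had to be higher there, and nothing is read from the count or the median. Under the filter, Brdt was at 0.493 and 0.404 FPKM and Sycp2 at 0.412 and 0.227. The other genes under the filter were higher in the library labelled Diff–iKO, some of them on few fragments.

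Families of genes expressed in testis that lie outside the cluster, X-linked but for Mageb3 on chromosome 2, did not reach the filter. Of 24 genes 0 reached an FPKM of 2, 11 were at 0 in both libraries, and the list summed to 1.18 and 4.56 FPKM. Of 4 X-linked homeobox genes outside the cluster 2 reached an FPKM of 2. Esx1, a placental homeobox gene, was at 3.72 and 3.62 FPKM and did not pass, and Pou3f4 was lower, at 2.63 and 0.840 FPKM. Pou3f4 passed the filter only through Diff–CONT, so its direction was fixed by the filter.

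The enzymes that write and maintain DNA methylation, which hold the Rhox promoters silent in other settings, gave 1 call. Of 7 genes that all reached an FPKM of 2, 1 was higher and 0 were lower, beside 15.1% of all genes called in either direction, with a median log2 ratio of 0.14. The maintenance enzyme Dnmt1 was at 53.5 and 58.9 FPKM and its partner Uhrf1 at 58.5 and 54.8. The de novo enzyme Dnmt3a was at 23.8 and 21.7 FPKM. Dnmt3b was at 53.0 and 26.6 FPKM, a log2 ratio of -0.995 (interval -1.07 to -0.92) at 0.502-fold, just short of the cut-off. It passed as lower under 2 of the 3 other scalings, at 0.499-fold with the median ratio set to 0 and 0.470-fold with equal FPKM sums. Dnmt3l, a cofactor without catalytic activity, was higher at 14.8 and 61.5 FPKM.

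Of 6 genes that remove DNA methylation or act in its removal 5 reached an FPKM of 2, 2 were higher and 0 lower. Tet1, which oxidises methylated cytosine, was at 8.25 and 36.0 FPKM and Apobec1 at 1.04 and 2.86, while Tet2 was at 5.92 and 9.16 and Tet3 at 11.8 and 8.30. Apobec1 passed the filter only through the library labelled Diff–iKO, so its direction was fixed by the filter. Of 17 factors that silence methylated promoters or germline genes, such as Trim28 at 212 and 278 FPKM and Ehmt2 at 54.1 and 56.2, all 17 reached an FPKM of 2 and 0 passed the cut-off in either direction, with a median log2 ratio of 0.05. DNA methylation was not measured in these libraries.

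The libraries also differed in sex-linked transcripts. Xist, the RNA that coats the inactive X chromosome, was at 0.0639 FPKM in Diff–CONT, against 3.59 in the library labelled Diff–iKO, and the Y-linked Uty at 4.14 and 0.664, Ddx3y at 4.07 and 1.89, Eif2s3y at 2.80 and 1.10 and Kdm5d at 1.11 and 0.228. The strand setting of the counting is not given, so Xist and the antisense Tsix cannot be told apart. The part of these differences in the values of the X-linked Rhox genes was not tested.

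The genes with the most similar pair of levels were found by the distance between log2(FPKM + 0.1) values in the 2 libraries. The nearest to Rhox6 were Slc7a3, also X-linked, at 35.5 and 181 FPKM (distance 0.16) and Alpl at 34.7 and 156 (0.17). Those to Rhox9 were Mylpf at 26.9 and 176 FPKM (0.34) and Sct at 22.3 and 114 (0.35), and to Rhox5 Uggt1 at 38.3 and 82.8 (0.06). A likeness over 2 libraries rests on 2 values a gene.

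The promoter windows of the Rhox genes held few CpG dinucleotides, the sites of DNA methylation. RefSeq windows (GRCm38.p6) of 300 bases, 250 before and 50 after the start, were matched for 4 of the 6 genes and for 25 of the 31 listed Rhox genes. The set of windows used here held none for Rhox6 or Rhox9. The number of CpG was 0 for Rhox1, 5 for Rhox5, 9 for Rhox10 and 5 for Rhox13. Over the 25 Rhox windows it ranged from 0 to 12 with a median of 7, beside a median of 13 over the 20752 windows of listed genes and of 20.5 over the 26 windows of the methylation-silenced germline genes. The median ratio of observed to expected CpG was 0.411 for the 25 Rhox windows, 0.573 for all windows and 0.736 for the germline genes. Most of the 25 windows belong to the Rhox2, Rhox3 and Rhox4 groups of near-identical copies, so they are not 25 independent promoters.

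**Figure D5:**
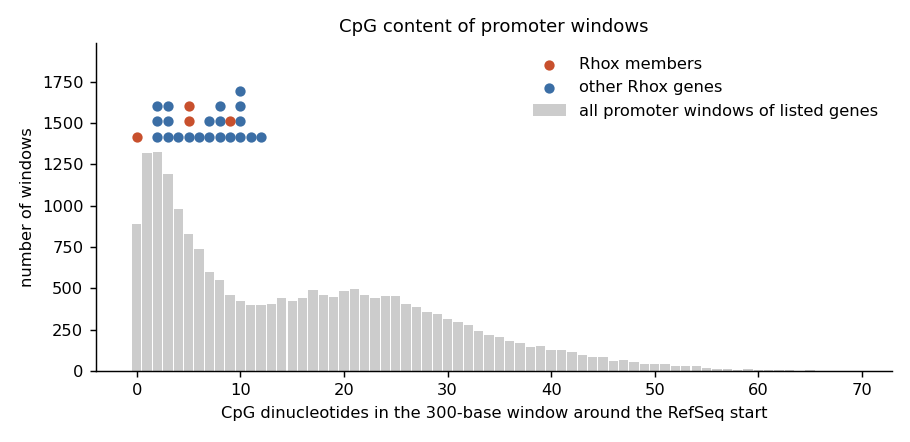
Number of promoter windows (y axis) by the CpG dinucleotides they hold (x axis), for all 20752 windows of listed genes (grey bars). Dots above the bars are the 25 Rhox windows, 4 of the 6 genes in orange and 21 others in blue, stacked by CpG count and not to the y axis. The Rhox windows lie between 0 and 12 CpG, left of most windows in the second rise of the bars.

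The windows of Rhox1, with no CpG, of Rhox5, the only gene past the cut-off among the 6 with a window, and of Rhox12, the gene with the largest ratio, are shown with each CpG in capitals. Rhox1 is at chrX:37222209-37222508 on the minus strand, Rhox5 at chrX:37754358-37754657 on the plus strand and Rhox12 at chrX:38110858-38111157 on the minus strand. The RefSeq start of Rhox5 lies 50.2 kb before the start of the GENCODE vM21 gene, so its window is that of a far upstream start and not of the gene model used for its length.
Rhox1: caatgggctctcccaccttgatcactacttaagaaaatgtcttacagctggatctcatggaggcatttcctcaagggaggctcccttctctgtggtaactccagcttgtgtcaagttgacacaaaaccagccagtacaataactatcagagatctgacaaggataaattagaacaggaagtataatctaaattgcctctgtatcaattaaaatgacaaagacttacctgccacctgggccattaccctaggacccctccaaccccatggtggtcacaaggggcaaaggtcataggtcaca
Rhox5: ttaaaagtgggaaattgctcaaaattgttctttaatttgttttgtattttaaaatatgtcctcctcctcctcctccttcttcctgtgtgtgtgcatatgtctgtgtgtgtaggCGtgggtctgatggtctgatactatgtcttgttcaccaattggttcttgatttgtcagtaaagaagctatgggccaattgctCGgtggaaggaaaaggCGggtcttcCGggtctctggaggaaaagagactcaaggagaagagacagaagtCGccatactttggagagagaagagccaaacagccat
Rhox12: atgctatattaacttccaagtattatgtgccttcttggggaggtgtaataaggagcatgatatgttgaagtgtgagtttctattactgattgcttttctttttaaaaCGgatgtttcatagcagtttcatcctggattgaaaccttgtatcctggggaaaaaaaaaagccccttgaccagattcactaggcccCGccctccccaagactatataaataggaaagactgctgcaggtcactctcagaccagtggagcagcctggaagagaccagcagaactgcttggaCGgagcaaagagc

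Motifs of factors known at silenced germline promoters were searched in these windows on both strands. TCCCGC, the core bound by E2F6, was in 0 of 25 Rhox windows and in 26.0% of all windows. CACGTG, the E-box bound by MAX and MGA, which reads the same on both strands, was in 4 of 25 Rhox windows (16%), those of Rhox4b, Rhox4e, Rhox4f and Rhox4g, and in 8.07% of all windows. These 4 genes belong to a group of near-identical copies, so their matches are not independent. GGAAGTG, an ETS-type motif, was in the Rhox10 window and no other Rhox window, and in 12.1% of all windows. Of the 26 germline windows 42.3% held TCCCGC, 61.5% CACGTG and 11.5% GGAAGTG. A match is a description of letters and not a bound site.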

How the data were processed

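Gene FPKM values were deposited by the authors for 24354 genes in 2 libraries, 1 per condition, in 2 columns that were assigned by name, with 0 other columns of values. The submitters' processing notes name STAR 2.7.9a, Cufflinks 2.2.1 and Cuffnorm on mm10. The gene annotation and strand setting are not given in the sources used here, and reads of overlapping genes cannot be told apart. The column of the library labelled Diff–iKO is marked as mutant.

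The 6 Rhox genes, the gene lists and the alternatives were chosen with earlier results of these data known. Genes were called past the cut-off at FC of at least 2 without a pseudocount and an FPKM of at least 2 in at least 1 library, without a test. List medians use log2 of FPKM with a pseudocount of 0.1, over genes whose mean FPKM was 1 or more. Named were the 6 genes, other Rhox genes reaching an FPKM of 2, the 3 highest genes of each list and those past the cut-off, 10 flanking genes, Xist and Y-linked genes, Ino80 and the 3 genes nearest to each Rhox gene past the cut-off. Not all are printed, and the other Rhox genes, Btg1-ps1, Btg1-ps2, Dnmt3a, Dnmt3b, Sox2, Mageb3, Brdt and Sycp2 fall outside the rule and were named after their values were seen.

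Fragments were recovered from the steps in FPKM that 1 fragment makes, given the transcript length. With the fitted steps 74.4% and 74.1% of the values tested lay within 0.1 of a whole number, where 20% would by chance. Fragments per gene are approximate. Both steps were tested on simulated data. For genes with few fragments the transcript length was scaled until the counts in both libraries came close to whole numbers. Symbols were matched to GENCODE vM21 (GRCm38) for 23315 genes, by a synonym for 667, and 372 were unmatched. The alternatives were other FPKM filters, FC thresholds, pseudocounts and scalings. Scripts ran on Python 3.11.15 with Biopython 1.88, scipy 1.17.1, pandas 2.3.3, matplotlib 3.10.9 and numpy 2.4.6.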

Additional observations from a re-analysis of the deposited data

How the results depend on the processing

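Of 104 alternatives computed, 0 reversed a direction. In 83 of them single ratios and medians moved within their counting interval or spread and counts within 1.5 times the reported count, which is not the same as no change: Rhox1 went from 2.22 to 0.67 with a pseudocount of 1, inside its wide interval, and 2 in place of 3 of the 6 Rhox genes passed with equal FPKM sums. Rhox5 fell below the cut-off at a log2 ratio of 0.98 with the libraries scaled to the same sum of FPKM. Rhox6 and Rhox9 summed gave 2.27, an alternative chosen after seeing the data. Scalings of the listed genes, also added then, changed the calls of Dnmt3b (0.470-fold and 0.499-fold) and Ascl2 (1.89-fold). With a pseudocount of 1 the median of the 6 Rhox genes was 0.86. Without Rhox6 the summed FPKM differed 3.50-fold. With no filter on FPKM all 6 genes passed as higher, and of the other Rhox genes 5 were higher and 3 lower. Without a filter, a fold over 0 or over 1 fragment passes. This was so for Rhox10, Rhox13, Rhox4b, Rhox4e and Rhox8 among the higher genes. It was also so for the 3 lower ones, Rhox2a, Rhox2c and Rhox2h, and nothing is read from these counts. With an FPKM of 2 required in both libraries 0 of the other Rhox genes were higher. Of all 24354 listed genes, 2794 were higher and 2761 lower with no filter. The counts were 488 and 569 with an FPKM of 2 in both libraries, 1846 and 2177 at an FC of 1.5, and 278 and 237 at an FC of 4. With an FPKM of at least 5 in at least 1 library 566 were higher and 671 lower. At an FC of 4, 2 of the 6 Rhox genes passed. No paired analysis was possible because each condition had 1 library and the labels carry no replicate numbers, and for the same reason no library could be left out. Depth limits Rhox1, Rhox10 and Rhox13, which rest on 14 fragments or fewer in each library.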
